A study of Mus musculus with 2 samples.

Results

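Neurog3 cells, the enteroendocrine precursors described here, were the cells of mouse ileal enteroids in which Neurog3 was plainly transcribed. A cell was taken when it held at least 2000 unique molecular identifiers (UMIs, the tags that count captured RNA molecules) and at least 3 of them came from Neurog3. This gave 154 cells, 88 in the library labelled wt and 66 in the library labelled ko, of 3040 cells with at least 2000 UMIs and of 4374 cells in all. The cells were chosen by their Neurog3 UMIs, so the level of Neurog3 in them is a description and nothing was tested with it. The remaining cells with at least 2000 UMIs, 2031 in wt and 855 in ko, are called the other cells.

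Enteroids are crypt-derived three-dimensional cultures of pure intestinal epithelium. Both cultures were started from ileal crypts of mice 4 months of age on a C57Bl6/129sv background, and the study compared enteroids with and without the transcription factor subunit Taf4. By the study's methods, the ko enteroids were Taf4 lox/lox::VilCreERT2, in which the villin promoter drives a tamoxifen-dependent Cre in epithelial cells, and the control enteroids were Taf4 lox/lox without Cre. Both therefore carried the floxed Taf4 gene. The ko culture received 1 µM 4-hydroxytamoxifen (4-OHT) for 3 days, from day 5 to day 8, and cells were then dissociated, sorted as live cells and captured for 3′-end single-cell RNA-seq. For the wt culture the sample label gives ethanol, the solvent of 4-OHT, whereas the methods give 4-OHT, so an effect of genotype and an effect of 4-OHT cannot be told apart in these libraries. Each group was 1 library. No difference between wt and ko could be tested, and the 95% intervals below cover counting error only, not the spread between cultures.

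Neurog3 encodes a basic helix-loop-helix (bHLH) transcription factor that commits secretory progenitors of the crypt to the enteroendocrine lineage. Its expression is brief: Notch signaling, acting through the repressor Hes1, keeps it off in neighboring cells, and once on it activates factors such as Neurod1 and Insm1, which carry the cell towards the hormone-producing state. Maturing enteroendocrine cells then make secretory granules, marked by chromogranins, and peptide hormones or serotonin.

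bHLH factors of this family bind the E-box, the letters CANNTG, which read as an E-box on both strands. The stretches of 250 bases before the annotated start are shown for Neurog3 itself, for Neurod1 and Neurod2, both bHLH genes that were high in these cells, and for Sox4, the most abundant regulator of the precursor list. Letters and positions are from RefSeq on GRCm38.p6, each written 5′ to 3′ on the strand of its gene, and capitals mark every CANNTG. The windows are chr10:62132840-62133089 (plus strand) for Neurog3, chr2:79456637-79456886 (minus strand) for Neurod1, chr11:98329646-98329895 (minus strand) for Neurod2 and chr13:28953700-28953949 (minus strand) for Sox4.
Neurog3: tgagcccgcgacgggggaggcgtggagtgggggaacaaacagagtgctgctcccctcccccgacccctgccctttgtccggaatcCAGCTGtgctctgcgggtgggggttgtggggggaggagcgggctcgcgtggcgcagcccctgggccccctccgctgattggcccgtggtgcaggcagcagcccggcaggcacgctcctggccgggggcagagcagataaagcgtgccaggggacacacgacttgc
Neurod1: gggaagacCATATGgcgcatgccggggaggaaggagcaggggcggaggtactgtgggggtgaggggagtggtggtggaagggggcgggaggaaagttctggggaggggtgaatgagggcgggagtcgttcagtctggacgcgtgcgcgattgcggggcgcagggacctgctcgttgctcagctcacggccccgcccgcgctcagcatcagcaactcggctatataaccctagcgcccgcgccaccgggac
Neurod2: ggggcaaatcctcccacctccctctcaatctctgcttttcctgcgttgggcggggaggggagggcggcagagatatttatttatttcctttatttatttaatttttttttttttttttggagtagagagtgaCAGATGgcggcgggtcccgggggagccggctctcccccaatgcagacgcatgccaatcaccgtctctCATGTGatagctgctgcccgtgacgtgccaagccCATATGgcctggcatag
Sox4: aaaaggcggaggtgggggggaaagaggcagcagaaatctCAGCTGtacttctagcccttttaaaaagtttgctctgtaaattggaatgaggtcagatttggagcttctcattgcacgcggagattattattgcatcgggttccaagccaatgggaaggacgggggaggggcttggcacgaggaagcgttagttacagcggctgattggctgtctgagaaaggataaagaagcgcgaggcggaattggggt
The Neurog3 window held 1 E-box, CAGCTG, whose first base lay 165 bases before the start. Neurod1 held CATATG at 242 bases and Sox4 held CAGCTG at 211 bases. Neurod2 held 3 E-boxes, with CAGATG at 118 bases, CATGTG at 51 bases and CATATG at 17 bases. E-boxes are common letters: 66.2% of 32851 promoter windows of this length had at least 1, and 14.4% had CAGATG or its reverse complement CATCTG. Of the 20 genes that led the comparison with the other cells below, 15 had a window in the table, 10 of these held an E-box and 4 held CAGATG on either strand. A match describes these letters only.

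By the rule that chose them, the Neurog3 cells held 1279 of the 1352 Neurog3 UMIs of the wt library (94.6%) and 1901 of the 1966 of the ko library (96.7%). Per cell, Neurog3 made up between 1.49 and 28.0 UMIs per 10000 in wt, with a median of 8.85, and between 0.97 and 76.8 in ko, with a median of 10.4. Summed over the cells this was 10.0 per 10000 in wt (9.47 to 10.6) and 14.0 in ko (13.4 to 14.7). The ranges overlapped from 1.49 to 28.0, and the highest ko cells lay above every wt cell. In Apoa1-positive cells, which are absorptive enterocytes and should lack Neurog3, a Neurog3 UMI was seen in 2 of 92 cells in wt (2.17%, median depth 21327.5 UMIs) and 2 of 103 in ko (1.94%, median depth 40471). The other cells had 0.0155 per 10000 in wt and 0.0122 in ko.

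**Figure D1:**
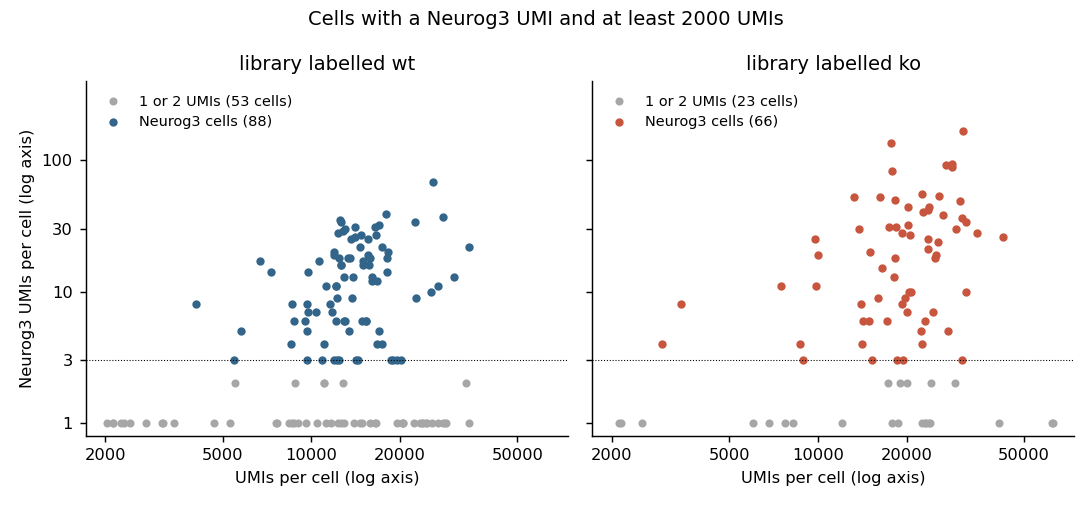
Neurog3 UMIs against total UMIs for every cell with at least 2000 UMIs and at least 1 Neurog3 UMI (both axes logarithmic), wt left and ko right; the dotted line is the threshold of 3. Colored points are the 88 wt and 66 ko Neurog3 cells, of which 50 and 44 held 10 or more Neurog3 UMIs, and grey points are the 53 and 23 cells with 1 or 2.

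Just outside the threshold, 6 wt and 5 ko cells held exactly 2 Neurog3 UMIs, and just inside it 16 and 9 cells held 3 or 4. Insm1 was 1.58 per 10000 in the wt cells just outside and 3.87 in those just inside, and 4.29 and 5.44 in ko. In cells with 10 or more Neurog3 UMIs it was 7.25 in wt and 8.55 in ko.

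The share of Neurog3 cells depended on which cells were counted. Among cells with at least 2000 UMIs it was 4.15% in wt (exact binomial interval 3.34 to 5.09) and 7.17% in ko (5.59 to 9.03), a difference of 3.01 percentage points (Newcombe interval 1.17 to 5.04). The ko library held many shallow cells: 50.9% of its cells reached 2000 UMIs, against 82.7% in wt. Over all cells the shares were 3.43% and 3.64%, a difference of 0.21 points (-0.92 to 1.39). With every cell thinned to 2000 UMIs and at least 1 Neurog3 UMI required, they were 4.29% and 6.30%, a difference of 2.00 points (0.24 to 3.95). The shares over all cells kept the limit of 2000 UMIs for the Neurog3 cells, so the shallow cells entered the divisor only. The interval of that difference included 0. Below 2000 UMIs, 0 wt cells and 1 ko cell held at least 3 Neurog3 UMIs.

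Neurog3 cells were shallower than the other cells in both libraries, with a median of 13583.5 UMIs against 19095 in wt and 20197 against 30689 in ko. They held a median of 3037.5 genes in wt and 4493 in ko. Ribosomal protein genes took a median of 36.5% of UMIs in the wt cells and 23.1% in the ko cells, and mitochondrial genes 7.06% and 6.84%. Leaving mitochondrial and ribosomal protein genes, Gm42418 and AY036118 out of the total lowered every log2 ratio of ko over wt by 0.30. Levels below keep all genes in the total. No doublet was called among the Neurog3 cells, and none of the 2 barcodes that the libraries shared belonged to one.

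Taf4 (chr2:179912146-179976646) was hardly counted, and it was not lower in the library labelled ko. The Neurog3 cells held 12 Taf4 UMIs in wt, in 11 cells, and 21 in ko, in 17 cells, which is 0.0939 and 0.155 per 10000 (log2 ratio 0.72, -0.37 to 1.88). The other cells had 0.0684 and 0.0883. Reads from the 3′ end do not show whether the floxed exons were still in the transcript, so these counts do not check the label. Its paralog Taf4b had 1 UMI in each library. Groups are named by their labels throughout.

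The marker genes of the lineage were present in these cells. Insm1, the zinc-finger factor, was detected in 84 of 88 wt cells and 64 of 66 ko cells, and Neurod1 in 39 and 50. At this depth Neurod1 was seen in 44.3% of the wt cells and 75.8% of the ko cells, so in wt the name precursor rests mainly on Neurog3 and Insm1. In Apoa1-positive cells, Insm1 was seen in 1 cell of each library and Neurod1 in 0 of 92 and 0 of 103, with exact upper bounds of 3.93% and 3.52% on the share of cells with a UMI.

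Against the other cells, the chosen cells were high in a set of regulators in both libraries. Some of the genes that led this comparison were as high in differentiated enteroendocrine cells, as given below. Among 1368 genes with at least 100 UMIs in the Neurog3 cells of each library, 153 were at least 2-fold higher than in the other cells in wt (11.2%) and 214 in ko (15.6%). Of these, 139 genes (10.2% of those compared) were 2-fold higher in both. The median log2 ratio over all 1368 genes was 0.06 in wt and 0.15 in ko. Of the 15 genes of the precursor list, 8 reached this limit, and all 8 were past 2-fold in both libraries. Their median log2 ratio was 3.94 in wt and 4.20 in ko. The limit counts UMIs in the Neurog3 cells only, so genes high in these cells reach it more readily. The count of 8 is therefore a description.

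The 20 leading genes, ranked by the lower of both ratios with Neurog3 left out, included several transcription factors. Neurod2 was 76.9-fold higher than in the other cells in wt and 44.3-fold in ko, Insm1 40.7-fold and 33.2-fold, Rfx6, a winged-helix factor needed for enteroendocrine cells, 25.4-fold and 22.1-fold, and St18, a zinc-finger factor, 20.9-fold and 18.8-fold. Neurod1 followed with 11.2-fold and 18.0-fold, and Prox1, a homeobox gene, followed with log2 ratios of 3.46 and 4.47. The corepressor Cbfa2t3 was 10.7-fold and 15.3-fold higher.

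The rest of the leading group held stress and growth-arrest genes, neuronal genes and early granule genes. Gadd45a was 13.1-fold higher in wt and 14.8-fold in ko, and its relative Gadd45g 11.6-fold and 14.7-fold. The guanine nucleotide exchange factor Fgd2 was 25.5-fold and 36.3-fold higher, the TGF-β pseudoreceptor Bambi 14.2-fold and 31.3-fold, the neurofilament gene Nefm 13.2-fold and 33.0-fold, and the calcium channel subunit Cacna1a 11.8-fold and 16.7-fold. Pcsk1, which encodes a prohormone convertase, was 8.63-fold and 10.7-fold higher, and Scgn, which encodes the calcium-binding protein secretagogin, 7.93-fold and 11.6-fold. The other members were Trp53i11, Vwa5b2, Cdc14b, Aplp1 and Hepacam2, between 8.63-fold and 34.9-fold. Of the 20, 4 were also at least 2-fold higher in ko than in wt (Bambi, Nefm, Neurod1 and Aplp1) and none was 2-fold lower, with a median log2 ratio of ko over wt of 0.45. With mitochondrial and ribosomal protein RNA out of the total, Nefm (1.11) and Neurod1 (1.12) stayed past 2-fold and Bambi (0.83) and Aplp1 (0.73) did not.

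**Figure D2:**
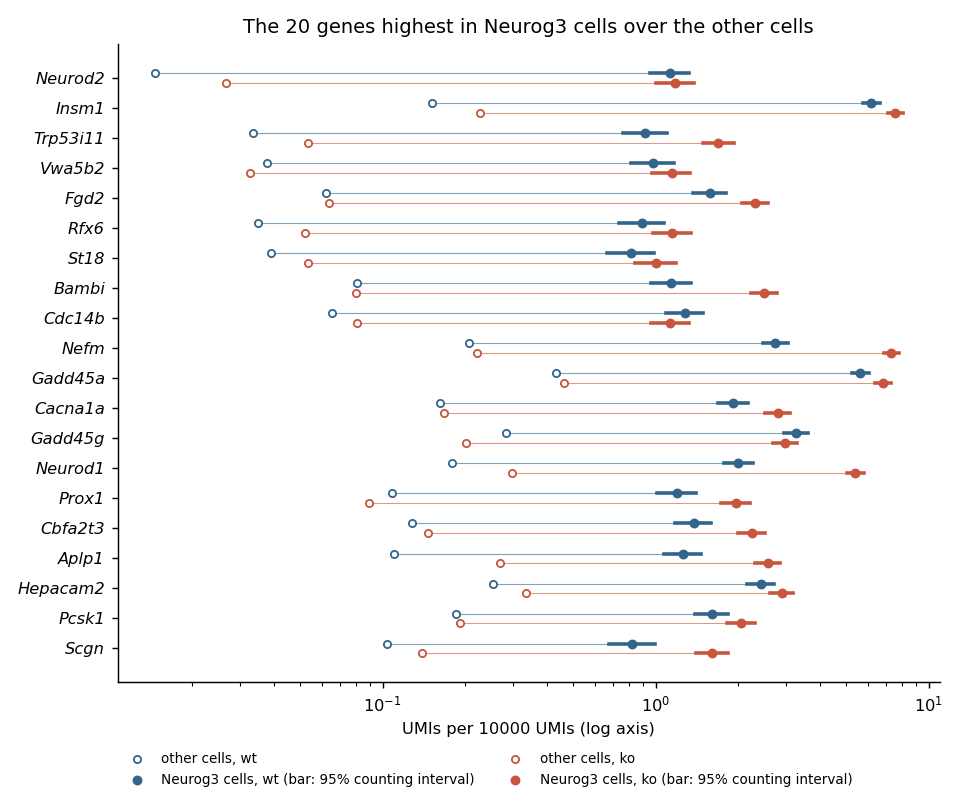
UMIs per 10000 (log axis) of the 20 leading genes in Neurog3 cells (filled points, bar: 95% counting interval) and in the other cells (open points), wt blue and ko red. Filled points of Neurod2 lie at 1.13 and 1.18 and those of Insm1 at 6.18 and 7.55, while Nefm stands at 2.75 in wt and 7.29 in ko.

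The Neurog3 cells were also set beside other cells of the secretory lineage. Cells without the Neurog3 criterion that held at least 10 Chga UMIs (69 in wt, 58 in ko) are differentiated enteroendocrine cells by that marker. A further set held at least 3 UMIs of Dll1 and Atoh1 together and under 10 Chga UMIs (80 and 50). This set was also rich in Paneth and goblet RNA. The log2 ratio of Neurog3 cells over it was -2.12 in wt and -1.89 in ko for Lyz1, and -2.60 and -2.35 for Spink4. Ang4 was seen in 50% of its wt cells and 94% of its ko cells. The set is therefore named by Dll1 and Atoh1 only and is not read as progenitors. Neurod2 was 1.13 per 10000 in wt Neurog3 cells, 0.29 in Chga cells and 0 in Dll1 or Atoh1 cells, and in ko 1.18, 0.55 and 0. Insm1 was 6.18, 2.72 and 0.35 in wt and 7.55, 4.47 and 0.03 in ko. Both genes were thus highest in the Neurog3 cells of either library.

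Sox4, an SRY-related factor, stood out against both sets. It was 18.0 per 10000 in the Neurog3 cells of wt against 4.20 in Chga cells and 5.43 in Dll1 or Atoh1 cells, and 16.9 against 3.26 and 3.07 in ko. Gadd45a was 5.63 against 1.81 and 0.18 in wt and 6.80 against 1.88 and 0.36 in ko. Neurod1 went the other way against the Chga cells, with a log2 ratio of -1.22 (-1.46 to -0.99) in wt and -0.25 (-0.41 to -0.09) in ko, and Chgb, the second chromogranin, was lower still at -3.85 in wt and -1.68 in ko. Rfx6 did not separate the 2 sets beyond counting error, at 0.18 (-0.28 to 0.66) in wt and 0.23 (-0.14 to 0.61) in ko. Among the other leading genes, St18 was also level with the Chga cells, at 0.03 in each library. Scgn (-1.68 in wt and -0.79 in ko), Pcsk1 (-0.98 and -0.64) and Aplp1 (-0.84 and -0.85) were below the Chga cells. Others were above them, such as Fgd2 (1.34 and 1.32) and Gadd45g (1.53 and 1.08). Depth differed between the sets, with medians of 9338 and 17027.5 UMIs in the Chga cells.

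Within the chosen cells, genes followed the level of Neurog3 in opposite ways. Cells of each library were split into 3 tiers of like size by Neurog3 per 10000: 30, 29 and 29 cells in wt, and 22 in each tier in ko. Insm1 was 8.60 in the highest, 5.94 in the middle and 4.10 in the lowest tier of wt, and 10.4, 6.83 and 5.38 in ko. Sox4 was 23.9, 16.1 and 14.1 in wt and 23.2, 19.3 and 7.89 in ko. Gadd45g was 4.44, 3.32 and 2.13 in wt and 4.06, 3.36 and 1.46 in ko. Summed over the cells of a tier, all 3 were thus lower with each step down in Neurog3, in both libraries. By the median per cell, Gadd45g in ko did not keep this order, at 2.20, 3.61 and 1.21.

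As sums over a tier, Chga, Cpe, Isl1 and Neurod1 were lowest in the tier with the highest Neurog3 in both libraries. In wt the medians per cell of Chga, Cpe and Isl1 were 0 in every tier, so these sums rest on a part of the cells. In ko the medians of Chga were 0.18, 8.75 and 14.5 from the highest to the lowest tier. Those of Isl1 were 0 in ko as well, and 13 of its 14 UMIs in the highest ko tier lay in 1 cell. Chga was 1.64, 5.09 and 4.08 from the highest to the lowest tier in wt and 3.92, 11.8 and 17.8 in ko. Cpe, which encodes the granule enzyme carboxypeptidase E, was 0.54, 3.14 and 1.93 in wt and 2.20, 2.78 and 8.10 in ko, and the LIM homeobox gene Isl1 0.26, 0.52 and 1.00 in wt and 0.32, 1.18 and 1.74 in ko. Neurod1 was 1.53, 2.52 and 2.02 in wt and 4.28, 4.90 and 7.08 in ko, so each tier of ko was above the matching tier of wt. Not every granule gene had its lowest level there: Pcsk1, a prohormone convertase, was 0.78, 2.34 and 1.73 in wt and 1.86, 1.83 and 2.51 in ko. The tiers had like depths within a library, with medians of 13398, 12854 and 14431 UMIs in wt and 19325.5, 22060 and 19567.5 in ko. These are descriptions, since the same cells' Neurog3 counts made the tiers.

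**Figure D3:**
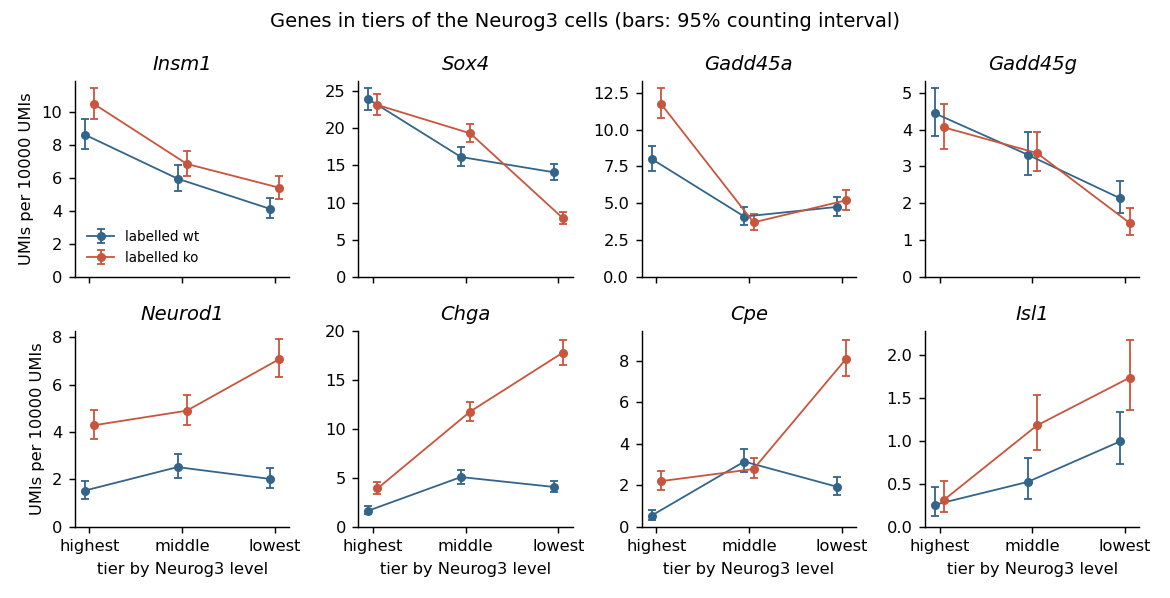
Level of 8 genes (UMIs per 10000, bars: 95% counting interval) in the tiers of Neurog3 cells with the highest, middle and lowest Neurog3 level, wt blue and ko red. Insm1, Sox4 and Gadd45g decline to the right in both libraries, and Chga reaches 17.8 in the lowest tier of ko against 4.08 in wt.

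Between the libraries, 217 of 3290 genes with at least 100 UMIs over both were at least 2-fold higher in the ko Neurog3 cells (6.6%) and 53 were at least 2-fold lower (1.61%), with a median log2 ratio of 0.27 over all genes. The split depended on the total: without mitochondrial and ribosomal protein RNA it was 91 higher and 134 lower, with a median of -0.02. The same 3290 genes had a median of 0.09 in the other cells, where 2.95% were 2-fold higher and 1.25% lower. Of the 217 genes, 66 were also 2-fold higher in the other cells, and of the 53, 16 were also 2-fold lower. Without the cell that held the most UMIs of each gene in each library, 209 and 49 genes stayed past 2-fold. Ratios of ko over wt are read below against the median of 0.27, and counts of list genes against 6.6% and 1.61%. The limit counts UMIs over both libraries, so a gene can reach it through the library where it is high.

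Most precursor regulators stayed within 2-fold between the libraries, but 3 were past it, all higher in ko. Of 15 genes of this list, 12 had at least 100 UMIs. Of these, 3 were 2-fold higher in ko, against 6.6% of all genes compared, and none was 2-fold lower. The median log2 ratio was 0.30, against 0.51 for the same genes in the other cells. Summed over the list, a cell held between 5.28 and 91.8 UMIs per 10000 in wt (median 37.2) and between 10.1 and 84.1 in ko (median 41.8). The log2 ratio was 0.29 (0.15 to 0.43) for Insm1, 0.07 (-0.27 to 0.40) for Neurod2, 0.37 (0.01 to 0.73) for Rfx6 and -0.09 (-0.17 to -0.01) for Sox4. With the smaller total these were -0.01, -0.23, 0.07 and -0.39, so that the direction turned for Insm1 and Neurod2.

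The 3 regulators past 2-fold were Neurod1, Nkx2-2 and Runx1t1. Neurod1 had 257 UMIs in wt and 730 in ko, or 2.01 (1.77 to 2.27) and 5.39 (5.01 to 5.80) per 10000. Per cell its median was 0 in wt, with a highest value of 35.9, and 4.37 in ko, with a highest value of 20.5. Most ko cells thus lay above most wt cells, although the highest cell was a wt cell. The log2 ratio was 1.42 (1.22 to 1.63), and 0.74 in the other cells. With every cell thinned to 10000 UMIs, Neurod1 was seen in 29.7% of 74 wt cells and 74.6% of 59 ko cells, a difference of 44.8 points (27.3 to 59.4). With all Neurog3 cells thinned to 2000 UMIs each, the log2 ratio was 0.56.

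Nkx2-2, a homeobox gene of the lineage, stood at 0.71 per 10000 in wt and 1.85 in ko (log2 ratio 1.37, 1.02 to 1.74), in 44 and 55 cells. Runx1t1, a corepressor of the same family as Cbfa2t3, was 0.67 and 1.56 (1.23, 0.86 to 1.61), in 29 and 47 cells, and under 2-fold (0.93) with the smaller total. Below the 100 UMI limit, Myt1, a zinc-finger factor, had 19 UMIs in wt and 65 in ko (1.69, 0.94 to 2.51), and Pax4 31 and 43 (0.39, -0.31 to 1.10).

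Among 10 regulators of later enteroendocrine fates, 5 had at least 100 UMIs, and 2 of these were 2-fold higher in ko, with a median log2 ratio of 0.84 against 0.64 in the other cells. The ETS factor Etv1 had 6 UMIs in 5 wt cells and 100 UMIs in 18 ko cells, a log2 ratio of 3.98 (2.80 to 5.46), against 1.13 in the other cells. In ko it stood at 0.07 per 10000 in the highest Neurog3 tier and 1.95 in the lowest. Fev, the ETS factor of serotonin cells, was 0.27 per 10000 in wt and 1.03 in ko (1.91, 1.36 to 2.48), in 13 and 29 cells. Prox1 was 1.20 and 1.97 (0.72, 0.43 to 1.02) and Isl1 0.60 and 1.08 (0.84, 0.43 to 1.26). Pax6, under the limit, had 6 and 38 UMIs.

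Notch genes were thinly counted. Of 18 genes of this list 3 had at least 100 UMIs, none was past 2-fold, and the median log2 ratio was 0.37, against -0.03 in the other cells. Hes6, a bHLH gene of the Hes family, was 3.35 per 10000 in wt and 4.34 in ko (0.37, 0.19 to 0.56). Mfng, a fringe glycosyltransferase that modifies Notch, was 51.0-fold higher than in the other cells in wt and 35.5-fold in ko, from 58 and 42 UMIs. Against the Chga-positive cells the log2 ratio was 1.77 in wt (0.79 to 2.90) and 1.02 in ko (0.14 to 1.97).

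Hes1 went the other way. The Neurog3 cells held 47 Hes1 UMIs in 22 wt cells and 7 in 6 ko cells, 0.37 (0.27 to 0.49) and 0.0517 (0.0208 to 0.107) per 10000. Both were below the other cells, at 1.41 and 1.16, and the log2 ratio of ko over wt was -2.83 (-4.22 to -1.68) against -0.28 in the other cells. The Notch ligand Dll1 had 46 UMIs in wt and 27 in ko (-0.85, -1.59 to -0.14), and in wt it was 0.61, 0.35 and 0.13 from the highest to the lowest Neurog3 tier. Atoh1, the bHLH gene upstream of all secretory fates, had 2 UMIs in wt and 0 in ko, so no ratio is given. Lfng, the lunatic fringe gene, had 16 and 43 UMIs (1.34, 0.49 to 2.27).

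Secretory granule genes were higher in the ko cells as a group. Of 24 genes, 12 had at least 100 UMIs. Of these, 8 were 2-fold higher, against 6.6% of all genes compared, and none was 2-fold lower. Some reached the limit through ko alone, such as Pcsk1n, Scg2 and Rab3c below. The median log2 ratio was 1.43, against 1.11 in the other cells, where 6 were 2-fold higher. Per cell the summed list ranged from 0 to 714 UMIs per 10000 in wt, with a median of 3.66, and from 0 to 481 in ko, with a median of 34.9. The typical ko cell thus held far more granule RNA, while the single highest cell was in wt.

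Chga, which encodes chromogranin A, had 458 UMIs in 21 wt cells and 1509 UMIs in 42 ko cells, 3.59 (3.26 to 3.93) and 11.1 (10.6 to 11.7) per 10000. Its median per cell was 0 in wt and 7.07 in ko, its highest value 61.3 and 80.4, and the log2 ratio was 1.64 (1.48 to 1.79), against 1.30 in the other cells. Thinned to 10000 UMIs, Chga was seen in 12.2% of wt and 57.6% of ko cells, a difference of 45.5 points (28.8 to 59.8). In Apoa1-positive cells it was seen in 7.61% and 1.94%. Detection in the Neurog3 cells was therefore above this background in both libraries.

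Chgb showed how much 1 cell could weigh. It had 1121 UMIs in wt, of which 676 (60.3%) lay in 1 cell, and 5217 in ko (log2 ratio 2.13), and the ratio was 3.24 without the top cell of each library. Cpe was 1.85 and 4.28 per 10000 (1.21, 0.99 to 1.44), and 0.48 with all cells thinned to 2000 UMIs. The vesicle gene Rab3c had 25 and 188 UMIs (2.83, 2.22 to 3.49) in 11 and 35 cells, and Pcsk1n, an inhibitor of prohormone convertase, 7 and 169 (4.51, 3.44 to 5.85) in 5 and 24 cells. Scg2, the secretogranin gene, had 10 UMIs in 2 wt cells and 187 in 8 ko cells, and 92 of the latter lay in 1 cell. Cplx2, which encodes a regulator of vesicle fusion, was 0.67 and 1.53 (1.20, 0.83 to 1.58), whereas its ratio in the other cells was -0.28. Cpe and Cplx2 were under 2-fold with the smaller total, at 0.92 and 0.90. Pcsk1 was 1.60 and 2.05 (0.36, 0.09 to 0.62).

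Peptide hormone RNA was concentrated in a few cells. Of 16 genes, 6 had at least 100 UMIs, 4 were 2-fold higher in ko and 1 lower, with a median log2 ratio of 2.96 against 1.36 in the other cells. The summed list had a median of 0.62 UMIs per 10000 per cell in wt and 1.48 in ko, and its highest cell held 634 and 4020. The sums therefore tell more of single cells than of the group.

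Cck, the cholecystokinin gene, had 617 UMIs in wt and 9839 in ko, of which 8776 lay in 1 cell, so that the log2 ratio of 3.91 was 2.03 without the top cells. Gcg, which encodes proglucagon, had 3 UMIs in wt and 3274 in ko, 3187 of them in 1 cell (10.01, 8.46 to 12.29, and 5.37 without the top cells). Pyy, the peptide YY gene, was lower in ko, but 498 of its 505 wt UMIs lay in 1 cell, against 46 UMIs in ko, and its log2 ratio of -3.54 became 1.20 without the top cells. Sct, the secretin gene, had 52 UMIs in 24 wt cells and 826 in 30 ko cells, of which 383 lay in 1 cell. Its log2 ratio was 3.91, and 3.30 without the top cells, against -0.99 in the other cells. At 3 UMIs or more Sct was held by 6 wt and 12 ko cells, and 779 of the ko UMIs lay in the lowest Neurog3 tier. Tac1, which encodes substance P, had 72 UMIs in wt, 71 of them in 1 cell, and 310 in ko. Ghrl, the ghrelin gene, had 237 and 238 UMIs, in 10 cells each (-0.08, -0.34 to 0.19).

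Free hormone RNA was also seen. Apoa1-positive cells held a Cck UMI in 12.0% of wt and 10.7% of ko cells, a Gcg UMI in 5.43% and 12.6%, and a Sct UMI in 8.70% and 9.71%. The Neurog3 cells held Cck in 27.3% and 31.8%, Gcg in 3.41% and 18.2% and Sct in 27.3% and 45.5%. The wt share for Gcg was below that background and is not read as expression. The interval of the ko share for Gcg, 9.76 to 29.6, included the background of 12.6%. Only 2 ko cells held 3 or more Gcg UMIs, so this share is not read as a trait of the group.

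**Figure D4:**
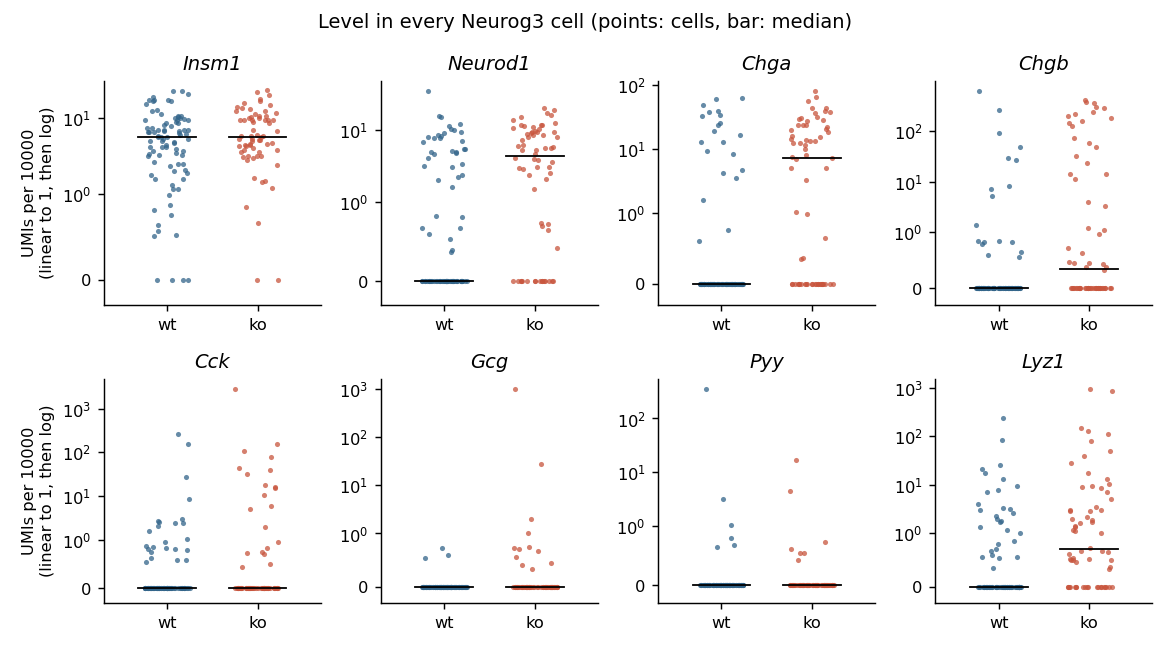
Level of 8 genes in every Neurog3 cell (points) with the median (bar), in UMIs per 10000 on an axis that is linear to 1 and logarithmic above, wt blue and ko red. Medians of Insm1 are 5.59 and 5.61 and those of Neurod1 0 and 4.37, while Gcg and Pyy each rest on 1 cell, at 1033 UMIs per 10000 in ko and 362 in wt.

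Genes for serotonin were 9, of which 5 had at least 100 UMIs and 2 were 2-fold higher in ko, with a median log2 ratio of 0.61 against 0.45 in the other cells. The 2 were Slc18a1, a vesicular monoamine transporter, at 0.41 and 1.47 per 10000 (1.85, 1.41 to 2.32), and Gch1, which makes the cofactor of tryptophan hydroxylase, at 0.67 and 2.05 (1.60, 1.25 to 1.97). Ddc, the decarboxylase of the pathway, was 1.30 and 1.99 (0.61, 0.33 to 0.90). Tph1, the rate-limiting enzyme, was rare: it was seen in 2 wt and 3 ko cells, with 19 and 49 UMIs.

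Counted by cell, more ko precursors carried differentiation genes beside Neurog3. At 3 UMIs or more, Insm1 was held by 70 of 88 wt cells and 60 of 66 ko cells. Neurod1 was held by 28 (31.8%, 22.3 to 42.6) and 45 (68.2%, 55.6 to 79.1), and Chga by 19 (21.6%, 13.5 to 31.6) and 37 (56.1%, 43.3 to 68.3). Neither Neurod1 nor Chga was held by 57 wt cells (64.8%, 53.9 to 74.7) and 18 ko cells (27.3%, 17.0 to 39.6). These intervals cover counting error within each library, not the spread between cultures, so the difference between libraries could not be tested. The counts were not matched for depth. Cells with neither gene had the higher Neurog3, a median of 10.7 per 10000 in wt and 15.2 in ko, against 6.79 and 7.20 in cells with both.

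A peptide hormone was held at 3 UMIs or more by 19 wt cells (21.6%) and 29 ko cells (43.9%). At 20 UMIs or more it was 7 and 14 cells, at 100 or more 2 and 6, and Tph1 at 3 UMIs 1 and 3. None of Neurod1, Chga, Tph1 or a hormone was held by 52 wt cells (59.1%) and 16 ko cells (24.2%). These counts were not thinned, and median depth was greater in ko. The part of depth in this difference was not tested.

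The summed proliferation lists were lower in Neurog3 cells than in the other cells of each library, and lower in ko than in wt. They were not low against the Chga cells. There the log2 ratio of Ube2c was 1.52 (1.09 to 1.97) in wt and 2.43 (1.42 to 3.62) in ko. That of Top2a was 1.12 (0.51 to 1.76) in wt and -0.69 (-2.54 to 1.11) in ko. Of 23 G2/M genes 2 had at least 100 UMIs, Top2a and Ube2c, and both were 2-fold lower in ko, also in the other cells. Top2a, the topoisomerase of dividing cells, had 107 UMIs in 19 wt cells and 6 in 6 ko cells (-4.24, -5.72 to -3.07, against -2.18 in the other cells), and Ube2c had 263 and 67 (-2.06, -2.47 to -1.66, against -1.90). The whole list summed to 999 UMIs in wt and 133 in ko, a log2 ratio of -2.99 (-3.26 to -2.73) against -1.70 in the other cells. Single cells weighed heavily in the wt sum. From the highest to the lowest Neurog3 tier of wt, 1 cell held 162 of 255, 111 of 199 and 290 of 545 UMIs. The ratio without these cells was not computed. Without the deepest 10% of the cells the ratio of Top2a was -1.59.

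By cell, the summed G2/M list ranged from 0 to 95.1 UMIs per 10000 in wt (median 1.62) and from 0 to 5.35 in ko (median 0.62). At 3 UMIs or more of Mki67 or Top2a, 7 of 88 wt cells were found (7.95%) and 0 of 66 ko cells (exact upper bound 5.44%). The median was lower in ko as well, and the cells with the highest values were wt cells. The 17 S-phase genes had 1 member over the limit, with a log2 ratio of -0.17 against -0.73 in the other cells.

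Of 11 G1 regulators 5 had at least 100 UMIs and 2 were 2-fold higher in ko, with a median log2 ratio of 0.64 against 0.08. Both were inhibitors of cyclin-dependent kinases: Cdkn1b was 0.34 and 0.78 per 10000 (1.22, 0.69 to 1.76), against 0.08 in the other cells, and Cdkn1c 0.33 and 0.68 (1.05, 0.51 to 1.61), against 0.28. Each was under 2-fold with the smaller total, at 0.92 and 0.75. The kinase gene Cdk4 was 4.56 and 3.55 (-0.36, -0.54 to -0.18).

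p53 target genes were higher in ko in a part of the list. Of 21 genes 9 had at least 100 UMIs and 4 were 2-fold higher, none lower, with a median log2 ratio of 0.64, below the 1.00 of the other cells. Cdkn1a, the p21 inhibitor, was 6.04 (5.62 to 6.48) and 13.8 (13.2 to 14.4) per 10000 (1.19, against 1.68 in the other cells), with medians per cell of 1.85 and 2.99 and highest values of 72.8 and 83.7. Ccng1 was 0.43 and 1.00 (1.21, against 1.90), Bax, the proapoptotic gene, 1.24 and 2.59 (1.06, against 1.00) and Trp53inp1 0.20 and 0.58 (1.50, against 2.81). Cdkn1a, Ccng1 and Bax were under 2-fold with the smaller total, at 0.89, 0.91 and 0.77. Mdm2, the p53 ligase, was 0.45 and 0.42 in the Neurog3 cells (-0.11, -0.66 to 0.44) and 0.22 and 0.49 in the other cells (1.16). Cdkn1a was 3.33-fold higher in Neurog3 cells than in the other cells in wt and 2.37-fold in ko. This was not particular to the Neurog3 cells in wt. Their log2 ratio over the Chga cells was -0.34 (-0.49 to -0.18) in wt and 0.41 (0.30 to 0.53) in ko. Apoa1-positive cells held 6.93 per 10000 in wt and 7.15 in ko.

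Paneth, goblet and enterocyte markers were present in the chosen cells, and the summed RNA of each list was higher in ko. All 10 Paneth genes had a UMI, and of the 9 with at least 100 UMIs 8 were 2-fold higher in ko, with a median log2 ratio of 2.75 against 2.30 in the other cells, where 9 were. Per cell the Paneth list ranged from 0 to 630 UMIs per 10000 in wt (median 1.88) and from 0 to 1771 in ko (median 5.82), and 5 wt and 16 ko cells held more than 50. Lyz1, the lysozyme gene, was 4.96 and 33.3 per 10000, with 2301 of its 4509 ko UMIs in 1 cell. It was seen in 34.1% and 69.7% of Neurog3 cells and in 33.7% and 62.1% of Apoa1-positive cells, at 0.31 and 0.60 per 10000 in the latter.

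From the highest to the lowest Neurog3 tier, Lyz1 was 0.49, 1.35 and 12.4 in wt and 70.9, 26.4 and 2.53 in ko, where 1 cell held 2301 of the 3127 Lyz1 UMIs of the highest tier. Other Paneth genes had another order in ko, and Ang4 was 37.9, 74.7 and 2.85. Median Neurog3 in the cells with over 50 Paneth UMIs per 10000 was 3.92 in wt and 17.3 in ko. Without these cells the libraries kept 83 and 50 cells, 210 of 2803 genes were 2-fold higher in ko and 66 lower, and the log2 ratio was 1.55 for Neurod1, 1.94 for Chga and 1.46 for Cpe, so these differences were as large without them. The median of the Paneth list was then 0.67 over 4 genes. The part of Paneth RNA in the other results was not tested.

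Of 8 goblet genes, 6 had at least 100 UMIs and 5 were 2-fold higher in ko (median 1.44, other cells 1.52). The typical cell went the other way, with a median of the summed goblet list of 20.6 UMIs per 10000 in wt and 11.8 in ko. Spink4 was 16.5 and 75.3 per 10000 (2.19) and Tff3, the trefoil factor, 40.5 and 90.5 (1.16), but their medians per cell were 0.89 and 2.01 for Spink4 and 17.4 and 7.06 for Tff3. Without the cells of high Paneth RNA both ratios turned, to -0.53 and -0.59, and so did the goblet median, to -0.53. Of 12 enterocyte genes 3 had at least 100 UMIs and all 3 were 2-fold higher in ko, with a median of 1.27 against 1.44 in the other cells. Tuft cell genes (4 of 10 with a UMI) and genes of immune, stromal and endothelial cells (2 of 10 with a UMI) did not reach 100 UMIs, with at most 0.81 and 1.41 UMIs per 10000 in any cell. Of 5 genes of nuclear and low-quality RNA, 1 was 2-fold higher in ko, Malat1, a nuclear RNA, at 56.3 and 163 per 10000 (1.53, against 0.63 in the other cells), and the list median was 0.32.

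**Figure D5:**
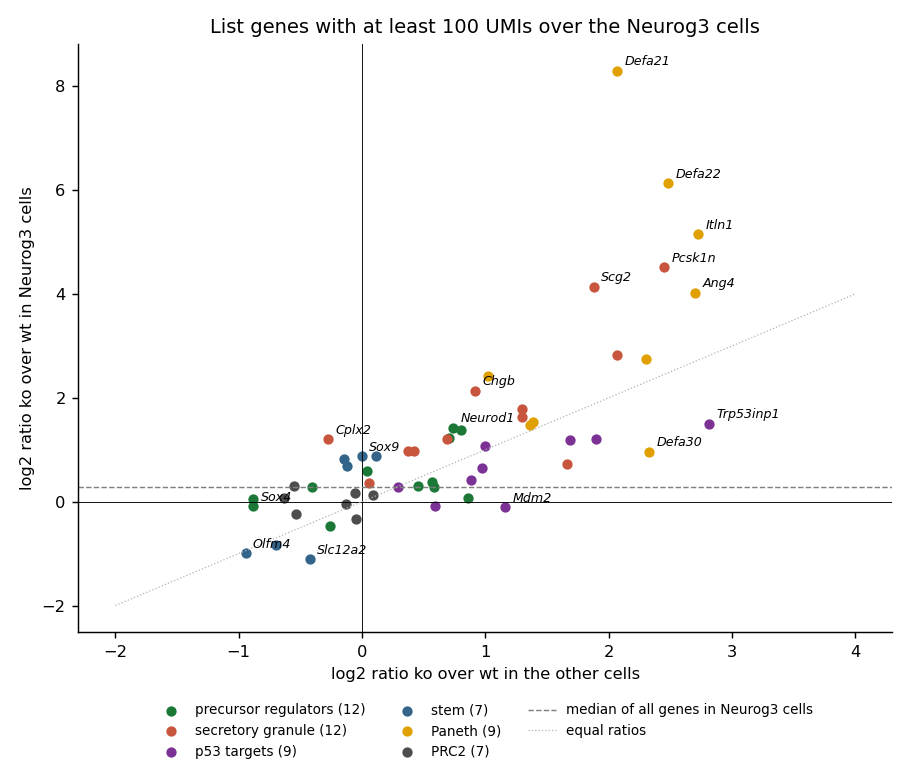
Log2 ratio of ko over wt in Neurog3 cells (vertical axis) against that in the other cells (horizontal axis) for genes of 6 lists with at least 100 UMIs over the Neurog3 cells, colored by list. The dotted line marks equal ratios and the dashed line the median of 0.27, and Cplx2 (1.20 against -0.28) and Mdm2 (-0.11 against 1.16) lie far from the dotted line on either side.

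Stem cell genes were split. Of 14 genes 7 had at least 100 UMIs, none was 2-fold higher and 1 was 2-fold lower in ko, with a median log2 ratio of 0.69 against -0.15 in the other cells. Slc12a2, the ion cotransporter, was 1.43 and 0.67 per 10000 (-1.11, -1.49 to -0.74), Olfm4 0.85 and 0.43 (-0.99, -1.48 to -0.52) and Lgr5, the receptor that defines crypt base stem cells, 0.56 and 0.32 (-0.83, -1.41 to -0.26). Sox9 was 1.02 and 1.87 (0.88, 0.57 to 1.19), Smoc2 0.63 and 1.10 (0.81, 0.41 to 1.22) and Axin2, a Wnt target, 0.53 and 0.86 (0.69, 0.24 to 1.14). The value of Olfm4 depended on which cells were taken, at -0.15 without the deepest 10% of the cells and 0.59 with at least 2 Neurog3 UMIs. The list's median was -0.08 over the 13 genes with at least 20 UMIs, and the log2 ratio of its summed UMIs was -0.05 (-0.18 to 0.08). Lgr5, Olfm4 and Slc12a2 were below the other cells in both libraries, and at 3 UMIs Lgr5 or Olfm4 was held by 13 wt and 5 ko cells.

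Polycomb repressive complex 2 genes, which silence developmental genes by methylating histone H3, did not separate the libraries. Of 10 genes 7 had at least 100 UMIs and none was past 2-fold, with a median log2 ratio of 0.07 against -0.13 in the other cells. The methyltransferase gene Ezh2 was 0.99 and 1.03 per 10000 (0.07, -0.29 to 0.43, and -0.23 with the smaller total) and Suz12 1.10 and 0.92 (-0.25, -0.61 to 0.11).

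The 10 highest ratios of ko over wt among all genes were mostly hormone, granule and Paneth genes already named: Gcg, Pcsk1n, Scg2, Etv1, Cck, Itln1, Ang4 and 3 α-defensins. Defa5 had 0 UMIs in wt and 131 in ko, all in 1 cell (at least 41.2-fold higher against a floor of 3 UMIs over the library), Defa21 had 999 of 1001 ko UMIs in 1 cell and Defa22 890 of 891. The defensin genes are near copies of each other, so their separate counts are uncertain. Itln1, an intelectin, had 74 UMIs in 13 wt cells and 2793 in 40 ko cells (5.15), and Ang4, an angiogenin, 313 in 22 and 5393 in 43 (4.02).

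Among the 10 lowest ratios were genes that were low throughout the ko library. Bex1 was held by 78 of 88 wt cells and 1 ko cell, with 405 and 7 UMIs (-5.94), and by its other cells likewise (-7.42). The predicted gene Gm10260 had 864 and 1 UMIs (-9.84, -15.14 to -7.36, and -10.56 in the other cells), Gm11361 96 and 6 (-4.08, and -3.29) and Gm47283 111 and 24 (-2.29, and -2.54). Reads of predicted genes can be shared with other copies, which makes their values uncertain. Whether the cultures differed genetically beyond Taf4 was not tested, and with 1 library per genotype such a difference and the loss of Taf4 cannot be told apart for these genes.

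The ratios of Fgfbp1, Ptgr1, Phgdh and Pycard were nearer 0 in the other cells. Fgfbp1, which encodes a fibroblast growth factor binding protein, had 193 UMIs in 36 wt cells and 25 in 14 ko cells (-3.03, -3.70 to -2.43), against -0.46 in the other cells, but the ratio was -0.58 with all cells thinned to 2000 UMIs. Ptgr1, a prostaglandin reductase, had 96 UMIs in 39 and 15 in 11 cells (-2.76, -3.65 to -1.97), against -0.30. Phgdh, the first enzyme of serine synthesis, had 100 in 42 and 18 in 13 cells (-2.56, -3.37 to -1.82), against -1.24. Pycard, the inflammasome adaptor, had 247 in 58 and 53 in 29 cells (-2.30, -2.76 to -1.87), against -0.98. Whether the ratios of these genes differ between Neurog3 cells and other cells could not be tested with 1 library per group.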

How the data were processed

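Single-cell RNA-seq was made from 2 enteroid libraries, 1 labelled wt and 1 labelled ko. The deposited tables hold raw UMI counts per gene and cell. Per the submitters' processing notes and the methods, the authors used bcl2fastq 2.17.1.14, Cell Ranger 3.1 with the mm10 genome and Seurat 3.1.4, and set limits of 200 to 6000 genes and 15% mitochondrial reads per cell. Total counts were 39947009 UMIs in 2563 wt cells (median 16749 per cell) and 24990128 in 1811 ko cells (median 2254). Annotation version and strand setting are not given in the sources used here.

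UMIs were summed over the Neurog3 cells of each library and given per 10000 UMIs, with exact Poisson intervals. Log2 ratios had exact conditional binomial intervals, shares Clopper-Pearson intervals and differences Newcombe intervals, all at 95%. No test was run, since each group was 1 library. A gene was compared with at least 100 UMIs over both libraries (100 in each against the other cells), and differences of at least 2-fold were counted. Levels are 3′-end counts, which need no length correction.

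Named genes were members of 19 gene lists, the 20 genes highest over the other cells and the 10 highest and 10 lowest ratios of ko over wt. Members and lists were chosen with earlier results of these data known. Scrublet in scanpy 1.11.5 called 10 doublets in wt (0.390% of cells) and 0 in ko, none a Neurog3 cell, and none was removed. At that rate in wt the caller found few, and doublets may remain. Calculations ran in Python 3.11.15 with scipy 1.17.1 (numpy 2.4.6 and pandas 2.3.3 for tables) and were tested on simulated data. Of 267 named genes 263 were matched to RefSeq GRCm38.p6. Alternatives were other Neurog3 and UMI minima, thinning, another total, equal weight for every cell, doublets left out, a lower count minimum and cells left out.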

Additional observations from a re-analysis of the deposited data

How the results depend on the processing

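Of 118 named genes with a ratio, 57 were past 2-fold and 25 stayed so in the same direction under every setting. The excess of Neurog3 cells among cells with at least 2000 UMIs kept its direction, at 2.00 to 4.07 points. With every cell thinned to 2000 UMIs, 18 genes were 2-fold higher and 5 lower in ko (345 genes compared), 15 genes in ko and 10 in wt were 2-fold higher than in the other cells, and the list medians were -0.083 for p53 targets, 0.0044 for precursor regulators and 1.76 for granule genes; fewer genes then reach 100 UMIs. Without mitochondrial and ribosomal protein genes in the total, 91 genes were higher and 134 lower, and the precursor median was -0.0011. With genes of at least 20 UMIs (8393 genes) it was 1199 and 265, with medians of 1.78 for granule genes and 3.91 for peptide hormones. The hormone median was 3.60 with at least 2 Neurog3 UMIs, 0.90 with at least 5, and 0.75 without the deepest 10% of the cells. Alternatives chosen after seeing the data left out single cells. Without the Neurog3 cells with over 50 Paneth UMIs per 10000, the hormone median was 3.35, and the direction turned, among values past 2-fold, for the goblet median (-0.53), Defa17 (-0.70), Defa21 (-0.29), Defa24 (-0.42), Spink4 (-0.53) and Tff3 (-0.59); among smaller values it turned for Guca2a (-1.68), Ezh2 (-0.25) and the PRC2 median (-0.25). Without the top cell of each gene it turned for Defa22 (-1.09) and Pyy (1.20). Smaller values also turned, such as Olfm4 with at least 2 Neurog3 UMIs (0.59), Defa30 without the deepest 10% of the cells (-1.82) and the stem median over genes of at least 20 UMIs (-0.08). Except where fewer genes were compared or cells were left out by construction, the cause was not tested. No paired analysis was possible because each group was 1 library. Leaving out a library would leave no comparison. Precision is limited by 154 cells and by depth that differed between the libraries.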
